A study of Mus musculus with 21 samples.

Results

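Urea cycle and nitrogen disposal genes were followed in bulk RNA-sequencing of mouse hearts. The genes described are 8 named genes, Cps1, Otc, Ass1, Asl, Nags, Slc25a15, Glul and Gls2, found by their symbols among the 46517 Ensembl genes of the deposited table. From textbook knowledge, 5 of them were classed as liver-restricted (Cps1, Otc, Nags, Gls2 and Slc25a15) and 3 as widely expressed (Ass1, Asl and Glul).

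RNA came from the left ventricle of 4 control (Notch3 +/+) mice and 3 Notch3-/- mice, all C57BL/6J and 10 to 14 months old, with 3 technical libraries from each mouse. The Notch3-/- mice carry a lacZ insertion in the Notch3 locus and lack the gene in the whole animal from conception, so these data hold no comparison of a heart-specific loss. Sample names begin with X for control mice 1 and 2 and with k for the other 5 mice, here called X-labelled and k-labelled. The 3 technical libraries were summed, each mouse was 1 replicate, and the summed counts ran from 3046326 to 4638786 in control mice and from 3828763 to 5167869 in Notch3-/- mice. Levels are given as counts per 1e+06 counts after TMM normalization (CPM).

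Ammonia released from amino acids is toxic, and the liver converts it to urea. Hepatocytes around the portal vein run the full urea cycle, which begins in the mitochondrion with carbamoyl phosphate and goes on in the cytosol, while hepatocytes around the central vein and many other tissues bind ammonia as glutamine. The adult heart has no complete urea cycle, although single enzymes of it serve arginine and citrulline metabolism in vessels and other cells, and heart muscle makes glutamine.

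For Notch3 itself the control mice gave 174, 200, 245 and 185 counts, in the order of their numbers, and the Notch3-/- mice gave 22, 36 and 25. Every Notch3-/- mouse was below every control mouse, as its label says. The 8 cardiomyocyte markers (Myh6, Tnnt2, Tnni3, Actc1, Myl2, Pln, Ryr2 and Actn2) summed to 16813, 11951, 13152 and 15919 CPM in control mice and 14960, 10803 and 11431 CPM in Notch3-/- mice, with Myh6 the most abundant, so RNA of heart muscle was present in all 7 mice. In bulk tissue, fewer cells of a type and less RNA per cell cannot be told apart.

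Of the 8 genes, 7 had many more counts in Notch3-/- mice 1 and 2 than in any control mouse, and in Notch3-/- mouse 3 the same 7 were close to the control mice. These 7 were the 5 liver-restricted genes together with Ass1 and Asl. Glul did not share the pattern. The 8 genes together summed to 278, 346, 316 and 302 CPM in control mice and to 1239, 2623 and 251 CPM in Notch3-/- mice 1 to 3. Markers of hepatocytes showed the same division of the mice, with summed levels of 48.7, 158, 17.4 and 30.7 CPM in control mice and 6159, 10505 and 153 CPM in Notch3-/- mice, and their part in the levels of the urea cycle genes was not tested.

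**Figure D1:**
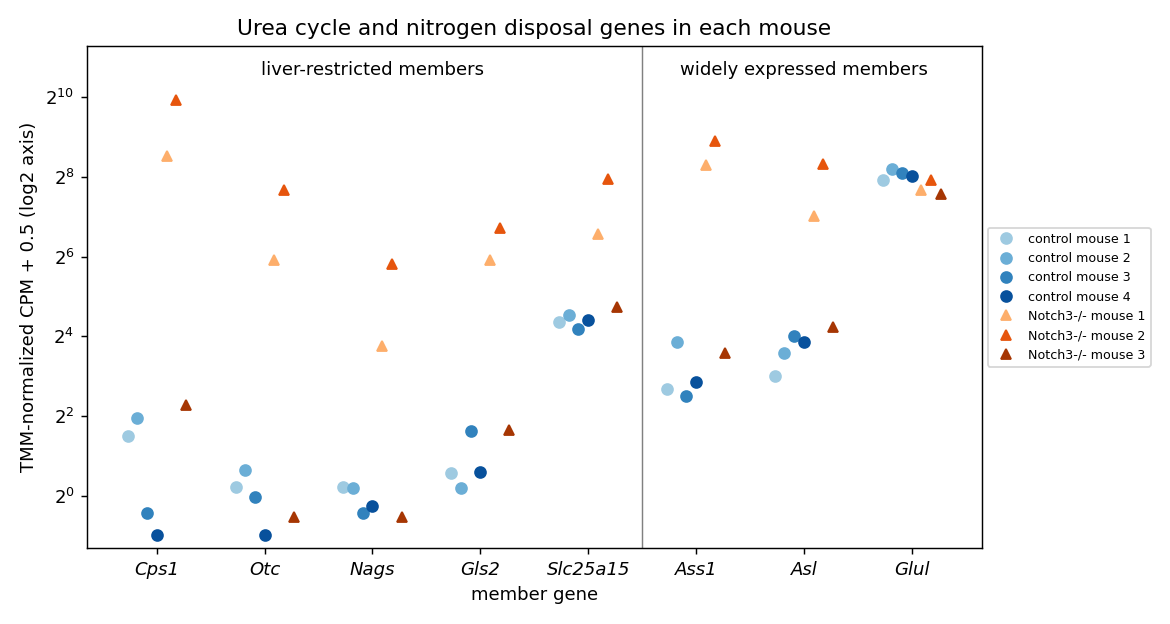
TMM-normalized CPM of the 8 genes in each of the 7 mice, with 0.5 added, on a log2 axis; circles are control mice and triangles Notch3-/- mice, and each point is the sum of 3 technical libraries. For 7 genes Notch3-/- mice 1 and 2 lie far above the other 5 mice, whereas for Glul all 7 mice lie close together.

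The first steps of the cycle take place in the mitochondrion. Cps1 (ENSMUSG00000025991) makes carbamoyl phosphate from ammonia and bicarbonate and sets the pace of the cycle. Its position (chromosome 1, plus strand, 67123026 to 67231259) and those of the other genes are from GENCODE vM21, on GRCm38. Its counts in control mice 1 to 4 were 7, 16, 1 and 0, and those in Notch3-/- mice 1 to 3 were 1343, 4634 and 23. The mean level was 1.48 ± 1.63 CPM (SD, n = 4) in control mice and 449 ± 490 CPM (SD, n = 3) in Notch3-/- mice. The groups did not overlap, but mouse 3, at 4.35 CPM, was near the highest control mouse, at 3.37 CPM.

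Nags (ENSMUSG00000048217; chromosome 11, plus strand, 102145513 to 102149477) makes N-acetylglutamate, the activator that the enzyme encoded by Cps1 requires. It had 2, 3, 1 and 1 counts in the control mice and 48, 263 and 1 counts in Notch3-/- mice. Mouse 3, with a single count, was as low as the lowest control mice. An antisense gene, Gm11586, shares 443 exon bases with Nags and had 2, 1, 1 and 1 counts in the control mice and 14, 48 and 1 counts in Notch3-/- mice. The sources used here do not say if reads were counted by strand, so genes that overlap on opposite strands cannot be told apart.

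Otc (ENSMUSG00000031173; chromosome X, plus strand, 10252305 to 10321024) joins carbamoyl phosphate to ornithine to form citrulline. It had 2, 5, 2 and 0 counts in the control mice and 218, 962 and 1 counts in Notch3-/- mice. Mice 1 and 2 were at 59.6 and 202 CPM, and mouse 3, with a single count, lay within the range of the control mice. Slc25a15 (ENSMUSG00000031482; chromosome 8, minus strand, 22375551 to 22398597) carries ornithine into the mitochondrion and citrulline out of it. It had 61, 108, 75 and 62 counts in the control mice and 344, 1177 and 139 counts in Notch3-/- mice. Of the 5 liver-restricted genes it had the highest level in control hearts, 20.3 ± 2.11 CPM (SD, n = 4), and mouse 3, at 26.3 CPM, was above all control mice.

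Promoters are shown for 3 genes, because Otc and Ass1 were high in the same mice although 1 is classed as liver-restricted and the other as widely expressed, and Glul was not. In the RefSeq promoter table (GRCm38.p6, from 250 bases before to 50 bases after the start of a gene), 5 of the 8 genes had an entry: Otc, Nags, Slc25a15, Ass1 and Glul. The 3 windows, on the plus strand, are chrX:10252055-10252354 for Otc, chr2:31470020-31470319 for Ass1 and chr1:153899679-153899978 for Glul. Each is written 5′ to 3′ with matches to the searched motifs in capitals.
Otc: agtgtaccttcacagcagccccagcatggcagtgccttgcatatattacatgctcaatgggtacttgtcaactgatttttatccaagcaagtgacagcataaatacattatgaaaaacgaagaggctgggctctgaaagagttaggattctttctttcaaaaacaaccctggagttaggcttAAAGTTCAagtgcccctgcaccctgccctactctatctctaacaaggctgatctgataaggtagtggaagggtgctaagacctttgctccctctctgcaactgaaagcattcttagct
Ass1: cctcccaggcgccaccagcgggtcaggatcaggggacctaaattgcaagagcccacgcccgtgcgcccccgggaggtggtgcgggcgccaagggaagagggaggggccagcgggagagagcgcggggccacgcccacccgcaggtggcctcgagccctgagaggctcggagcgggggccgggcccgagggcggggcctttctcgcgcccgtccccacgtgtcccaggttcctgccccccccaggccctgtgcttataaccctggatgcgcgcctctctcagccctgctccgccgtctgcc
Glul: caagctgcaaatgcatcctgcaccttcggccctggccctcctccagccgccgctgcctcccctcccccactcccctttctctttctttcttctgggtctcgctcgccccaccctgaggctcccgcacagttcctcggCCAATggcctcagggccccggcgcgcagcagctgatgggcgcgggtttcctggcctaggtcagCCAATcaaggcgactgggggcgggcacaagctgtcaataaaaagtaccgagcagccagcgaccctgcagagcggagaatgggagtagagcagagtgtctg
The motifs, searched on both strands, were AAAGNNCA (the core of sites bound by HNF4, a liver transcription factor), TTGCNNAA (C/EBP factors), TATAAA (the TATA box) and CCAAT (the CCAAT box). They occur in 19.6%, 10.8%, 13.6% and 37.4% of all 32851 promoters of that length. The Otc window held 1 match to AAAGNNCA at position -68 from the start site, and the Glul window held CCAAT at -113 and -50. In the windows of Ass1, Nags and Slc25a15 the letters of these 4 motifs did not occur. G and C made up 44.3% of the Otc window, 74.0% of the Ass1 window and 64.3% of the Glul window, beside a median of 52.7% over all promoters, and the CG dinucleotide occurred 1, 27 and 17 times. These matches describe the letters only.

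The middle steps of the cycle are cytosolic and are used widely to make arginine. Ass1 (ENSMUSG00000076441; chromosome 2, plus strand, 31470207 to 31520672) joins citrulline and aspartate to argininosuccinate, and in endothelial cells it recycles citrulline for the synthesis of nitric oxide. It had 18, 67, 22 and 20 counts in the control mice and 1147, 2274 and 61 counts in Notch3-/- mice. Mouse 3, at 11.5 CPM, was below control mouse 2, at 14.1 CPM, so the groups overlapped. Asl (ENSMUSG00000025533; chromosome 5, minus strand, 130011258 to 130029247) splits argininosuccinate into arginine and fumarate. It had 23, 54, 66 and 42 counts in the control mice and 473, 1519 and 97 counts in Notch3-/- mice. All Notch3-/- mice were above all control mice, and mouse 3 was closest to them, at 18.3 CPM beside 15.5 CPM in control mouse 3.

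Glutaminases release ammonia from glutamine. Gls2 (ENSMUSG00000044005; chromosome 10, plus strand, 128194457 to 128210004), the glutaminase of the liver, had 3, 3, 11 and 3 counts in the control mice and 219, 496 and 14 counts in Notch3-/- mice. The groups did not overlap, although mouse 3, at 2.65 CPM, and control mouse 3, at 2.59 CPM, were nearly equal. Means were 1.30 ± 0.874 CPM (SD, n = 4) in control mice and 55.6 ± 51.0 CPM (SD, n = 3) in Notch3-/- mice. Gls2 shares 97 exon bases with Spryd4 on the opposite strand, which had 152 to 246 counts in control mice and 233 to 300 counts in Notch3-/- mice.

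Glul (ENSMUSG00000026473; chromosome 1, plus strand, 153899944 to 153909723), glutamine synthetase, binds ammonia to glutamate and in the liver marks the hepatocytes next to the central vein. It had 728, 1386, 1167 and 776 counts in the control mice and 741, 1148 and 993 counts in Notch3-/- mice. Levels were 240, 292, 275 and 259 CPM in control mice and 202, 241 and 188 CPM in Notch3-/- mice, so mouse 2 overlapped with control mouse 1 and the other Notch3-/- mice lay below all control mice. Glul shares 93 exon bases with Mir8114 on the same strand and 116 with Teddm2 on the opposite strand. These had 80 to 113 and 99 to 154 counts in control mice, and 70 to 101 and 95 to 141 counts in Notch3-/- mice.

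The difference between genotypes was tested with edgeR's quasi-likelihood (QL) test over the 14324 genes that passed the expression filter, and p was turned into a false discovery rate (FDR) by Benjamini-Hochberg adjustment. A gene was called where its FDR was lower than 0.05 and its level differed at least 1.5-fold. Of the 8 genes, 6 passed the filter and Otc and Nags did not. Cps1 and Gls2 passed through the Notch3-/- mice, since fewer than 3 control mice reached the filter's level of 2.38 CPM, so a difference in both was built into their passing. None of the 6 was called by the edgeR QL test, whereas DESeq2, run on every gene, called 7 of the 8 as higher, beside 3.29% of its genes. A fit by edgeR without Notch3-/- mouse 3 called 7, beside 6.02%. Mouse 3 was the Notch3-/- mouse near the control mice for these 7 genes. Otc and Nags, tested in that fit, reached 2.38 CPM in 0 control mice and 2 Notch3-/- mice. Calls and non-overlap without mouse 3 are therefore no separate support. Notch3 was the 1 gene called among all tested (0.00698%), with a log2 fold change of -3.16 (SE 0.23) and an FDR of 0.00173 from the edgeR QL test with Benjamini-Hochberg adjustment. With an unadjusted p lower than 0.05 in the edgeR QL test, 5 of the 6 were higher and 1, Glul, was lower in Notch3-/- mice, beside 1051 higher (7.34%) and 437 lower (3.05%) of all genes tested. All Notch3-/- mice were above all control mice for 4 of the 6 genes (Cps1, Gls2, Slc25a15 and Asl), beside 655 genes (4.57%) of all those tested. Over every gene with at least 1 count it was 4 of the 8, beside 894 genes (3.11%) of 28790, and without Notch3-/- mouse 3 it was 7 of the 8, beside 2295 genes (15.3%) of 15008.

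The fitted log2 fold change was 8.13 (SE 1.49) for Cps1, 5.35 (SE 1.02) for Gls2, 5.03 (SE 0.95) for Ass1 and 3.67 (SE 0.73) for Asl, each with an FDR of 0.118 from the edgeR QL test with Benjamini-Hochberg adjustment. For Slc25a15 it was 2.59 (SE 0.57), with an FDR of 0.149 from the same test and adjustment. Glul had a log2 fold change of -0.34 (SE 0.13), with an FDR of 0.401 from the edgeR QL test with Benjamini-Hochberg adjustment. In technical library 1 alone the direction of Glul turned, to 0.12. When every gene with at least 1 count was tested, Otc and Nags had log2 fold changes of 7.10 (SE 1.21) and 5.50 (SE 1.06), with FDRs of 0.00347 and 0.00781 from the edgeR QL test with Benjamini-Hochberg adjustment.

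The number of calls depended on the choice of genes, the tool and a single mouse. Over the 28790 genes with at least 1 count, edgeR called 7 of the 8 genes as higher, beside 628 genes (2.18%) in all. DESeq2, run on the same genes, also called 7 as higher, beside 572 (3.29%) of the 17393 genes with an adjusted p. On the 14324 genes that passed the filter, where edgeR and limma-voom called none of the 6, DESeq2 called 5 as higher, beside 282 (2.09%) of the 13479 genes with an adjusted p. Without Notch3-/- mouse 3, the Notch3-/- mouse near the control mice for these genes, edgeR called 7, beside 903 (6.02%) of 15008 genes. The log2 fold changes there were 8.70 (SE 0.61) for Cps1 and 3.07 (SE 0.32) for Slc25a15, and this fit is no separate support. In these 4 analyses with calls, Glul was the only tested gene of the 8 that was not called. Within the k-labelled mice, 2 control and 3 Notch3-/-, none of the 8 was called by edgeR, and no other tool was run. An unadjusted p lower than 0.05 in the edgeR QL test was found for 7, all higher in Notch3-/- mice. Of the 14872 genes tested it was found for 949, a number not split by direction. There all Notch3-/- mice were above all control mice for 5 of the 8, beside 1842 (12.4%) of 14872 genes, and the log2 fold change was 11.39 (SE 3.05) for Cps1, 3.39 (SE 1.15) for Asl and -0.35 (SE 0.15) for Glul. The X-labelled mice are all controls and give no comparison.

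Genes of both classes were among the 7 that were high in Notch3-/- mice 1 and 2. The median log2 fold change was 5.35 over the 3 liver-restricted genes tested and 3.67 over the 3 widely expressed genes, beside -0.0028 over all genes tested. The first value is that of Gls2, which like Cps1 passed the filter through the Notch3-/- mice, so only Slc25a15, at 2.59, stands in that class without this limit. The second class holds values that are far apart, 5.03 and 3.67 for Ass1 and Asl and -0.34 for Glul. With Gls2 and Slc25a15 moved to the widely expressed class, the first median was 8.13, from Cps1 alone, and the second was 3.67. Over every gene with at least 1 count, the medians were 5.50 for all 5 liver-restricted genes and 3.64 for the widely expressed genes. In technical libraries 1, 2 and 3 alone, Slc25a15 was the only liver-restricted gene tested. The medians there were 2.44, 2.55 and 2.82 for its class and 4.08, 3.54 and 3.44 for the other, in the reverse order. For single mice, the median log2 CPM of the tested liver-restricted genes lay 5.19 and 5.98 above the control mean in Notch3-/- mice 1 and 2, and that of widely expressed genes 3.41 and 4.71 above it. The values of the first class are again those of Gls2. Slc25a15, which passed the filter without this limit, lay 2.19 and 3.58 above its control mean, lower than the medians of the widely expressed genes. No order of the classes is therefore read from these medians. Control mice lay between -0.19 and 0.17 in the first class and between -0.29 and 0.14 in the second. In mouse 3 the medians were 0.92, from Gls2, and 0.61, from Ass1. The first of these leaves out Otc and Nags, which did not pass the filter and had 1 count each in mouse 3, so nothing is read from the position of mouse 3 in that class.

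**Figure D2:**
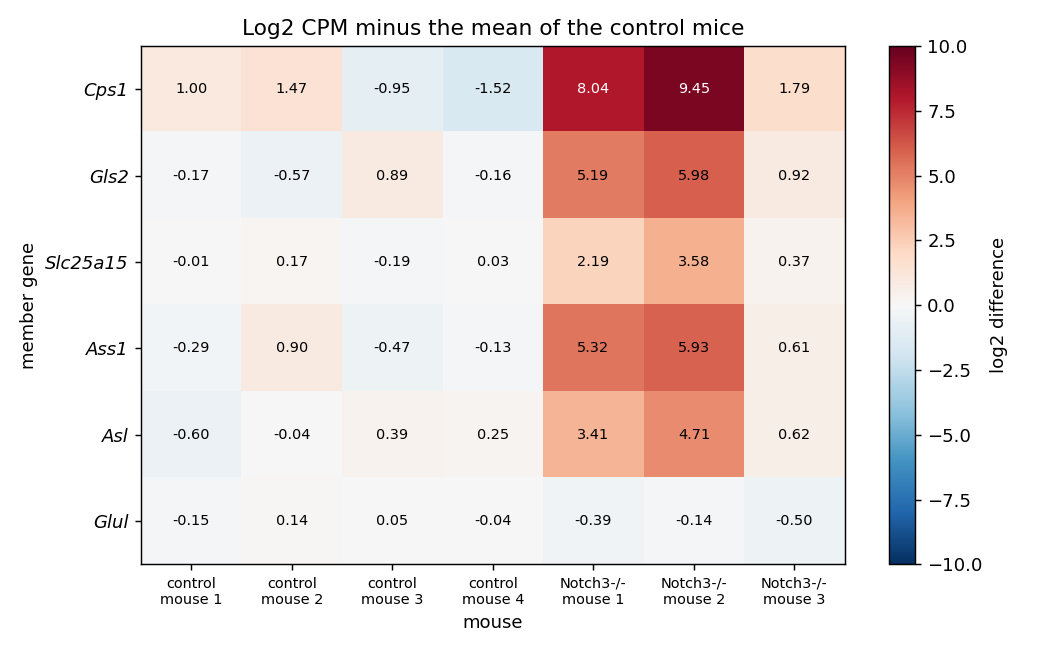
Log2 CPM minus the mean of the 4 control mice for the 6 tested genes (rows) in each mouse (columns), with the difference printed in each field and shown as colour. Notch3-/- mice 1 and 2 reach 8.04 and 9.45 for Cps1 but lie at -0.39 and -0.14 for Glul.

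Levels of different genes were compared per 1000 exon bases. In control hearts Glul was highest, at a mean of 80.2 CPM per 1000 exon bases, and its lowest control mouse, at 72.1, was above every control mouse of the other 7 genes. Slc25a15, Ass1 and Asl followed at 3.61, 3.30 and 2.51, and the ranges of neighbours in this order overlapped. Slc25a15, although classed as liver-restricted, was thus not lower than Ass1 and Asl in control hearts, and its class does not describe its level there. Gls2, Cps1, Nags and Otc were lower, at 0.375, 0.266, 0.164 and 0.129, again with overlapping ranges of neighbours. The highest control mouse of Gls2, at 0.745, was below the lowest of Asl, at 1.57.

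In Notch3-/- mouse 2 the order was another, with Ass1 at 198 and Cps1 at 175 CPM per 1000 exon bases above Glul at 72.7. Mouse 1 also had Ass1 and Cps1 above Glul, at 130 and 66.1 beside 60.9. In both mice Nags was lowest, at 4.62 and 19.5. In mouse 3 Glul was highest at 56.5, far above Ass1 at 4.78 and Slc25a15 at 4.67, and Nags and Otc were at 0.0666 and 0.0446.

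Notch3-/- mice 1 and 2 also differed from each other. Relative to mouse 1, the CPM of mouse 2 was 4.22 times as high for Nags, 3.40 for Otc, 2.66 for Cps1, 2.63 for Slc25a15, 2.47 for Asl, 1.74 for Gls2 and 1.53 for Ass1. For Glul it was 1.19 times as high. The summed hepatocyte markers were 1.71 times as high in mouse 2, and 1.94 times without Alb, which was at 1705 and 1875 CPM in these mice. Relative to the control mean, mouse 3 was 2.94 times as high for Cps1, 2.03 for Gls2, 1.51 for Asl, 1.45 for Ass1 and 1.29 for Slc25a15, and the summed hepatocyte markers were 2.40 times as high. With 1 control mouse left out at a time, the ratio was 2.21 to 5.14 for Cps1, 1.74 to 3.03 for Gls2 and 1.93 to 4.74 for the hepatocyte markers. It was 1.34 to 1.67 for Asl, 1.29 to 1.95 for Ass1 and 1.24 to 1.35 for Slc25a15. The highest values of Cps1 and the hepatocyte markers were those without control mouse 2, and that of Gls2 was without control mouse 3. Mouse 3 was below control mouse 2 for the hepatocyte markers, at 153 beside 158 CPM, and for Ass1. Glul was at 0.705 times the control mean. Otc and Nags had 1 count each in mouse 3, below the control mean, and no ratio is given at so few counts.

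Single technical libraries of a mouse were compared for 3 of the genes. Cps1 had 301 to 455 CPM in the 3 libraries of Notch3-/- mouse 1, 920 to 1039 in those of mouse 2 and 3.75 to 5.14 in those of mouse 3, where the counts were 6, 7 and 10. The 12 control libraries ranged from 0 to 4.60 CPM, the highest with 4 counts. Otc had 54.3 to 64.8 CPM in mouse 1 and 196 to 208 in mouse 2, and its single count in mouse 3 came from 1 library. Glul ranged from 198 to 397 CPM between the libraries of control mouse 2 and from 124 to 291 in Notch3-/- mouse 3, wider than the range of 188 to 292 between mice, but only from 240 to 247 in Notch3-/- mouse 2. Counts per exon base reached at most 0.333 in a library for the 8 genes, in Ass1, beside 1.30 for Alb and 1.85 for mt-Rnr2, the highest among genes of at least 1000 exon bases.

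Markers of the liver and of other tissues were read beside these genes. Of the 18 hepatocyte markers, 15 passed the filter and all 15 were higher at an unadjusted p lower than 0.05 in the edgeR QL test, beside 7.34% of all genes tested. Their median log2 fold change was 6.91. Of the 15, 11 had fewer than 3 control mice at the filter's level, so a difference was built into their passing. None was called by edgeR in the filtered table. DESeq2 over every gene and edgeR without Notch3-/- mouse 3 each called all 18 as higher, beside 3.29% and 6.02% of all genes. Mouse 3 was the lowest Notch3-/- mouse for the sum of these markers, so the calls without it are no separate support. All Notch3-/- mice were above all control mice for 7 of the 15 tested, beside 4.57% of all genes tested. The most abundant was Alb, serum albumin, with 68, 385, 10 and 32 counts in the control mice and 6240, 8913 and 354 counts in Notch3-/- mice. No hepatocyte marker was at 0 in all mice, and Alb was the only one with a control mean of at least 10 CPM. Per 1000 counts of the hepatocyte markers, Cps1 had 59.6, 92.8 and 28.4 counts in Notch3-/- mice 1 to 3, Otc had 9.67, 19.3 and 1.23, and Ass1 had 50.9, 45.5 and 75.3. Glul had 32.9, 23.0 and 1226.

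Markers of both zones of the liver lobule were high in the same mice, apart from Oat. The 5 periportal markers (Hal, Sds, Cyp2f2, Hsd17b13 and Pck1) summed to 2.63, 9.69, 3.53 and 2.67 CPM in control mice and 448, 1779 and 8.13 CPM in Notch3-/- mice, with Pck1 the most abundant. The 6 pericentral markers summed to 416, 490, 388 and 436 CPM in control mice and 1036, 1363 and 417 CPM in Notch3-/- mice. The most abundant, Oat, an ornithine-degrading enzyme that the heart also expresses, had a mean of 428 CPM in control mice. Levels of Oat were 410, 483, 385 and 434 CPM in control mice and 469, 538 and 409 CPM in Notch3-/- mice. The log2 fold change of Oat was 0.14 (SE 0.13). Cyp2e1, a cytochrome P450, had 11, 27, 5 and 6 counts in the control mice and 1561, 3164 and 34 counts in Notch3-/- mice. Lect2 and Rhbg were at 0 in all control mice and in mouse 3, with 57 and 133 counts of Lect2 and 18 and 33 counts of Rhbg in mice 1 and 2. Glul, which has its highest level in the liver in the same zone, was not high in these mice. Like Oat it was expressed in control hearts, at a mean of 266 CPM beside 3.12 CPM for Cyp2e1. A small added amount could therefore not be seen in Glul, and nothing is read from it about the zone.

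Of the 5 Kupffer cell markers, which mark macrophages of the liver, 3 passed the filter, 2 of them through the Notch3-/- mice, with a median log2 fold change of 1.29. The 5 together had 23, 27, 31 and 26 counts in the control mice and 207, 364 and 74 counts in Notch3-/- mice, and their part in the levels of the urea cycle genes was not tested. Clec4f, the most abundant, had 0, 6, 7 and 2 counts and 83, 128 and 10 counts in the same order. The sum of mouse 3 came mainly from Vsig4, at 34 counts, and Timd4, at 29. Control hearts also had both, with 15, 10, 16 and 11 counts of Vsig4 and 8, 10, 8 and 1 of Timd4. Cd5l had 0, 0, 0 and 12 counts in the control mice and 74, 145 and 1 counts in Notch3-/- mice. Marco had 6, 21 and 0 counts in Notch3-/- mice. The 7 macrophage markers, with Csf1r the most abundant, summed to 179 to 245 CPM in control mice and 208 to 261 CPM in Notch3-/- mice, and their median log2 fold change over 6 tested genes was 0.10. Of the macrophage markers 6 had a control mean of at least 10 CPM, of the Kupffer cell markers 0, and no marker of either list was at 0 in all mice.

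Markers of other tissues and cells that hold some of these enzymes were examined as well. The 8 kidney tubule markers summed to at most 3.67 CPM in any mouse, with Lrp2 the most abundant and Slc34a1, Umod and Slc22a6 at 0 in all 7 mice. The 8 enterocyte markers summed to 103 to 185 CPM in control mice and 85.5 to 158 CPM in Notch3-/- mice, mostly from Lgals4, the only one with a control mean of at least 10 CPM, and Alpi was at 0 in all mice. Fabp2, a fatty acid-binding protein of the intestine, had 0, 1, 0 and 0 counts in the control mice and 13, 221 and 0 counts in Notch3-/- mice. Other enterocyte markers went the other way. Vil1 had 0, 7, 1 and 10 counts in the control mice and 0, 0 and 1 counts in Notch3-/- mice, and Lgals4 had a log2 fold change of -0.50 (SE 0.29). The 7 neutrophil markers summed to at most 3.01 CPM, with S100a8 the most abundant and Ly6g, Mpo and Camp at 0 in all mice. The 7 endothelial markers, all expressed in control hearts and with Kdr the most abundant, summed to 734 to 1207 CPM in control mice and 1061 to 1120 CPM in Notch3-/- mice.

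Genes around the cycle were read in 3 related lists with 44 genes. No gene of these lists was called by the edgeR QL test in the filtered table, while DESeq2 over every gene called 0, 2 and 4 of them as higher in the order given here, beside 3.29% of all genes, and edgeR without Notch3-/- mouse 3 called 3, 3 and 5, beside 6.02%. For the counts at an unadjusted p lower than 0.05 below, the shares of all genes tested were 7.34% higher and 3.05% lower. The 11 genes that supply ammonia and aspartate summed to 2788 to 3257 CPM in control mice and 2820 to 3308 CPM in Notch3-/- mice, and the median log2 fold change of the 9 tested was 0.15, with 2 higher and 0 lower at an unadjusted p lower than 0.05 in that test. The most abundant were Got1 and Got2, the aspartate aminotransferases of the cytosol and the mitochondrion, with log2 fold changes of -0.18 (SE 0.11) and -0.18 (SE 0.12). The largest values among the tested genes of this list were those of Gpt2, mitochondrial alanine aminotransferase, at 1.09 (SE 0.37), and Glud1, glutamate dehydrogenase, at 0.55 (SE 0.22). Car5a, a mitochondrial carbonic anhydrase, did not pass the filter and had 3, 4, 2 and 1 counts in the control mice and 55, 153 and 0 counts in Notch3-/- mice. Gpt2 had 289, 611, 351 and 279 counts in the control mice and 647, 1744 and 501 counts in Notch3-/- mice.

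Of the 15 genes for glutamine, proline and polyamine handling, 14 were tested, 5 were higher and 1 lower at an unadjusted p lower than 0.05 in the edgeR QL test, and the median log2 fold change was 0.32. Slc38a4, an amino acid transporter abundant in the liver, had 29, 81, 30 and 13 counts in the control mice and 495, 2136 and 40 counts in Notch3-/- mice, a log2 fold change of 4.34 (SE 0.99). Slc7a5, a transporter of large neutral amino acids, had 7, 37, 16 and 12 counts in the control mice and 4, 9 and 8 counts in Notch3-/- mice, a log2 fold change of -1.57 (SE 0.49), and in CPM, at 1.09, 1.89 and 1.51 beside at least 2.30, all Notch3-/- mice were below all control mice. The most abundant were Aldh4a1, of proline breakdown, at 0.18 (SE 0.15), and Slc38a2, a glutamine transporter, at 0.46 (SE 0.15). For Slc7a5 the FDR was 0.293 from the edgeR QL test with Benjamini-Hochberg adjustment. The share of all genes with all Notch3-/- mice below all control mice was not counted. Slc25a12, Slc14a1 and Azin2, of the other related lists, were also in that order.

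Of the 18 genes for arginine use and urea exit, 11 were tested, 3 were higher and 0 lower at an unadjusted p lower than 0.05 in the edgeR QL test, and the median log2 fold change was 0.29. Slc7a2, a transporter of arginine and other cationic amino acids, had 42, 35, 11 and 18 counts in the control mice and 209, 1224 and 60 counts in Notch3-/- mice, a log2 fold change of 3.89 (SE 0.89). Gamt, which makes creatine from guanidinoacetate, had 31, 57, 67 and 37 counts in the control mice and 186, 576 and 99 counts in Notch3-/- mice, a log2 fold change of 2.33 (SE 0.50). The most abundant were Ate1, an arginine transferase, at -0.20 (SE 0.12), and Aqp7, a glycerol channel, at 0.00 (SE 0.31). Slc14a2, a urea transporter of the kidney, was at 0 in all 7 mice. The median leaves out genes that did not pass the filter. Of these, Aqp9 had 0, 2, 0 and 0 counts in the control mice and 111, 747 and 1 counts in Notch3-/- mice. Agmat had 2, 8, 3 and 7 counts and 160, 459 and 5 counts in the same order. Slc14a1, with 8, 8, 18 and 3 and then 3, 0 and 4 counts, and Azin2, with 3, 6, 4 and 7 and then 3, 4 and 2 counts, went the other way.

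**Figure D3:**
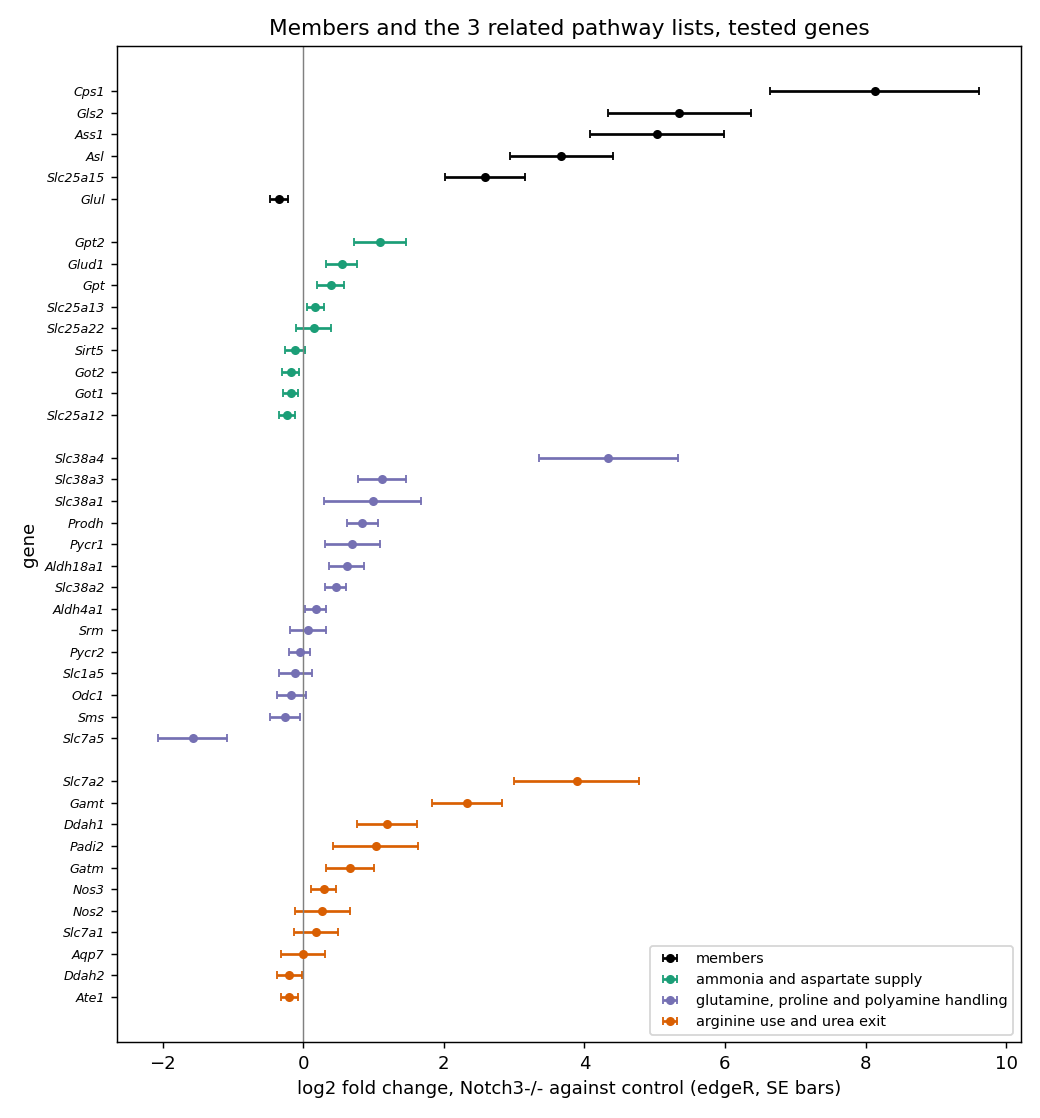
Log2 fold change between Notch3-/- and control mice from edgeR (points) with SE (bars) for the 6 tested urea cycle and nitrogen disposal genes and the tested genes of the 3 related lists, sorted within each list. Cps1 lies at 8.13 and Glul at -0.34, and in the related lists Slc38a4 and Slc7a2 lie at 4.34 and 3.89 while most genes lie near 0.

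The tested genes most like Cps1 were found by the mean absolute difference, over the 7 mice, of log2 CPM minus the control mean. The nearest 5 were Hpd (0.272), of tyrosine breakdown, Fgg (0.279), a fibrinogen chain, Apoa5 (0.373) and Apob (0.445), apolipoproteins, and F2 (0.444), prothrombin, beside a median of 3.46 over all tested genes. Hpd had 4, 11, 0 and 0 counts in the control mice and 1190, 2254 and 14 counts in Notch3-/- mice. The genes most like Glul were Pcna (0.0470), Luc7l3 (0.0557), Socs7 (0.0670), Crnkl1 (0.0680) and Gtf2b (0.0709), beside a median of 0.311. Pcna, a clamp for DNA polymerases, had 72, 139, 108 and 84 counts in the control mice and 74, 113 and 94 counts in Notch3-/- mice. Hpd and F2 are among the 18 hepatocyte markers, and none of the genes near Glul is in any of the lists. Cps1, Hpd and F2 passed the filter through the Notch3-/- mice, and the 5 genes nearest to Cps1 had 0 to 20 counts in control mice. Nearness to Cps1 thus rests mainly on Notch3-/- mice 1 and 2, and it is not read as support.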

How the data were processed

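Heart RNA was reverse transcribed by the authors, amplified by PCR and cut with Tn5. The authors deposited raw counts per Ensembl gene for 21 libraries, without normalization. The submitters' processing notes name the build mm10 and CASAVA, while the aligner and counting program are not given in the sources used here. The table held 92 further lines for ERCC sequences, with 34 counts in all libraries, which were left out. Of 46517 identifiers, 46005 were matched to a symbol.

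Counts of the 3 technical libraries were summed for each mouse. The test of genotype was edgeR's (version 4.0.16, R 4.3.3) glmQLFit and glmQLFTest after filterByExpr and TMM, with Benjamini-Hochberg adjustment over all genes and thresholds of 0.05 for the FDR and 1.5 for the fold. Log2 CPM used a prior count of 2. Alternatives were DESeq2 1.42.0, limma 3.58.1 (voom), other scaling and filters, each mouse left out, k-labelled mice only and single technical libraries. The code was tested on simulated data. Positions and exon lengths are from GENCODE vM21 (GRCm38) and promoters from RefSeq. Some genes of the set and of a related list are not reported here. The members and gene lists were chosen with earlier results of these data known. Genes named beyond the members are, for each related list, the tested genes with the 2 largest changes and the 2 highest control levels, the most abundant marker and markers at 0 of each marker list, and the 5 genes nearest to Cps1 and to Glul. Spryd4, Gm11586, Mir8114 and Teddm2 are named for their overlap. Car5a, Cyp2e1, Fabp2, Vil1, mt-Rnr2, Vsig4, Timd4, Cd5l, Marco, Aqp9, Agmat, Slc14a1, Azin2 and Slc25a12 were chosen after their values were seen.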

Additional observations from a re-analysis of the deposited data

Results flagged for a closer look

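Among the 4 control mice, 2 of 24 values examined had 1 mouse far from the others, where chance flags about 1 in 20 groups. Ass1 had 14.1 CPM in control mouse 2 and 5.18 to 6.68 CPM in the other control mice, a gap of 0.832 of the whole range. The summed periportal hepatocyte markers were at 9.69 CPM in control mouse 2 and at 2.63 to 3.53 CPM in the others, a gap of 0.873 of the range. Control mouse 2 also had the highest summed hepatocyte markers of the control mice, at 158 CPM beside 17.4 to 48.7 CPM, and their part in its level of Ass1 was not tested.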

How the results depend on the processing

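RLE factors, total counts alone, limma-voom on the 7 mice and no fold threshold left 1 gene and 0 of the members called. DESeq2 called 597 genes and 7 members, and edgeR over every gene with at least 1 count called 639 genes and 7 members. DESeq2 on the genes of the expression filter, an alternative chosen after seeing the data, called 300 genes and 5 members. The k-labelled mice alone gave 0 called genes in edgeR, with 949 at an unadjusted p lower than 0.05. Leaving out 1 mouse at a time gave 1 to 936 called genes (0.00668% to 6.24% of those tested), 0 to 7 called members, 4 to 7 members with all Notch3-/- mice above all control mice (6.26% to 15.3% of all genes), and medians of 4.50 to 6.11 for liver-restricted and 2.58 to 4.19 for widely expressed members. The 936 genes and 7 members were called without Notch3-/- mouse 3, and with any other mouse left out 1 gene and 0 members were called. Technical library 1, 2 or 3 alone called 48, 39 and 77 genes (0.427%, 0.339% and 0.651%), of which 2, 2 and 3 were members, and 1, 1 and 3 of 4 tested members had all Notch3-/- mice above all control mice, beside 3.28%, 4.51% and 4.39% of all genes. The medians there were 2.44, 2.55 and 2.82 for liver-restricted members, which is Slc25a15 alone since the other 4 did not pass the filter at this depth, and 4.08, 3.54 and 3.44 for widely expressed members, so the order of the classes was the reverse of that in the summed mice. With Gls2 and Slc25a15 counted as widely expressed, the median of the liver-restricted class was 8.13, from Cps1 alone.

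Limma-voom on 21 libraries, with the mouse as a random effect, called 65 genes without and 62 with the technical replicate number as a replicate block, and 0 of the 4 members that passed its filter. On simulated data this fit called unchanged genes more often than the other fits, so nothing is read from its calls. The medians were 2.03 and 2.87 without the replicate block and 2.04 and 2.88 with it, the first of each pair from Slc25a15 alone, in the same reversed order. The numbers did not pair libraries: the median correlation of deviations between mice was -0.0182 for 63 pairs of the same number, and 15 of them were over 0.1.

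The direction of Glul turned, to 0.12, in technical library 1 alone, and the cause was not tested. The other 7 members were higher in Notch3-/- mice in every alternative that tested them. At these totals, 3 counts correspond to 0.567 to 1.00 CPM, and Nags in control mice and Notch3-/- mouse 3 was at or below this limit, as was Otc there except in control mouse 2, with 5 counts.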
